A study of Mus musculus with 6 samples.

Results

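Intraflagellar transport (IFT) is the traffic of protein trains along the microtubules of a cilium, and this account follows the genes for its trains and its return motor in cultured mouse ependymal cells with and without Edf1. The genes were chosen by name and role, but with earlier results of these data known. They code for subunits of IFT-A, of IFT-B and of dynein-2, the adaptor Tulp3 and the small GTPase Rabl2, without kinesins and the BBSome. They are 31 of the 22851 gene symbols in the deposited table. All 31 were found under their own symbols, and all 31 were among the 14243 genes with enough counts to be tested.

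RNA came from radial glial cells, the neural progenitors along the brain ventricles, taken from newborn pups (P0 to P3) on a C57BL/6J background and cultured in serum. Removing serum for 6 days turned them into multiciliated ependymal cells, the cells whose cilia move the cerebrospinal fluid. The 2 groups, WT and Edf1 KO, had 3 libraries each, went through the same culture, and differ by genotype in the labels. Edf1, which codes for a transcriptional coactivator that also binds collided ribosomes, was knocked out in the mice with CRISPR/Cas9. The series' text calls the replicates biological but does not say how many animals or cultures each one holds, so p-values measure the spread between these libraries.

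IFT trains are assembled at the ciliary base. Kinesin-2 pulls them to the tip, with IFT-B as the main scaffold, and dynein-2 pulls them back, with IFT-A needed for return and for the entry of membrane proteins. Both primary cilia and motile cilia are built by this machinery, so many cell types of the brain express the genes.

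Total counts were 13071766 to 28087006 per library, with the lowest in WT replicate 2. Edf1 itself ran from 80.2 to 85.9 CPM (counts scaled to a common library size) in WT and from 9.84 to 13.2 CPM in the knockout, so the libraries followed their labels. Over all tested genes, 26.9% were called different by edgeR (quasi-likelihood F-test, Benjamini-Hochberg adjusted p below 0.05), 14.2% lower and 12.7% higher in the knockout, and the median log2 change was 0.0029. The markers of ependymal cells were present, with Foxj1 at 759 to 838 CPM in WT. Markers of other cells were present too. The summed level of 14 microglial genes was 2522 to 2699 CPM in WT and 1663 to 1711 CPM in the knockout, with 13 called lower and none of the 14 at 0. The sum over 12 radial glia and astrocyte genes was 10060 to 10550 CPM in WT and 11040 to 11460 CPM in the knockout, with 3 called higher and 1 lower. The sum over 10 fibroblast and mural genes was 853 to 913 CPM and 1056 to 1175 CPM, with 8 of 9 tested genes called higher. The sum over 9 neuronal genes was 253 to 331 CPM and 274 to 291 CPM, with 2 of 8 tested genes called lower. The sum over 7 oligodendrocyte genes was 109 to 119 CPM and 119 to 130 CPM, with 1 of 5 called higher. The sum over 6 choroid plexus genes was 96.7 to 125 CPM and 113 to 135 CPM, with 1 of 4 called higher. The sum over 7 pituitary genes was 17.2 to 20.4 CPM and 28.9 to 35.4 CPM, with 3 of 4 tested genes called higher and 1 lower; Prl and Gh had no count in WT. The part of these other cells in the values below was not tested.

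Genes of every subcomplex were called lower in the knockout. Of the 31 genes, 27 fell by the same edgeR call, against 14.2% of all tested genes called lower. None rose, against 12.7% of all tested genes called higher: with edgeR, DESeq2 and limma voom alike, 0 of the 31 were higher even at an unadjusted p below 0.05. The median log2 change was -0.37, which puts the knockout at 77.6% of WT. Most of the differences were small and alike in size: 26 genes had a log2 change between -0.6 and -0.2, 2 lay below that range and 3 above it. The 4 genes that did not pass were Ift122, Ttc21b, Ttc30a2 and Dync2h1.

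**Figure D1:**
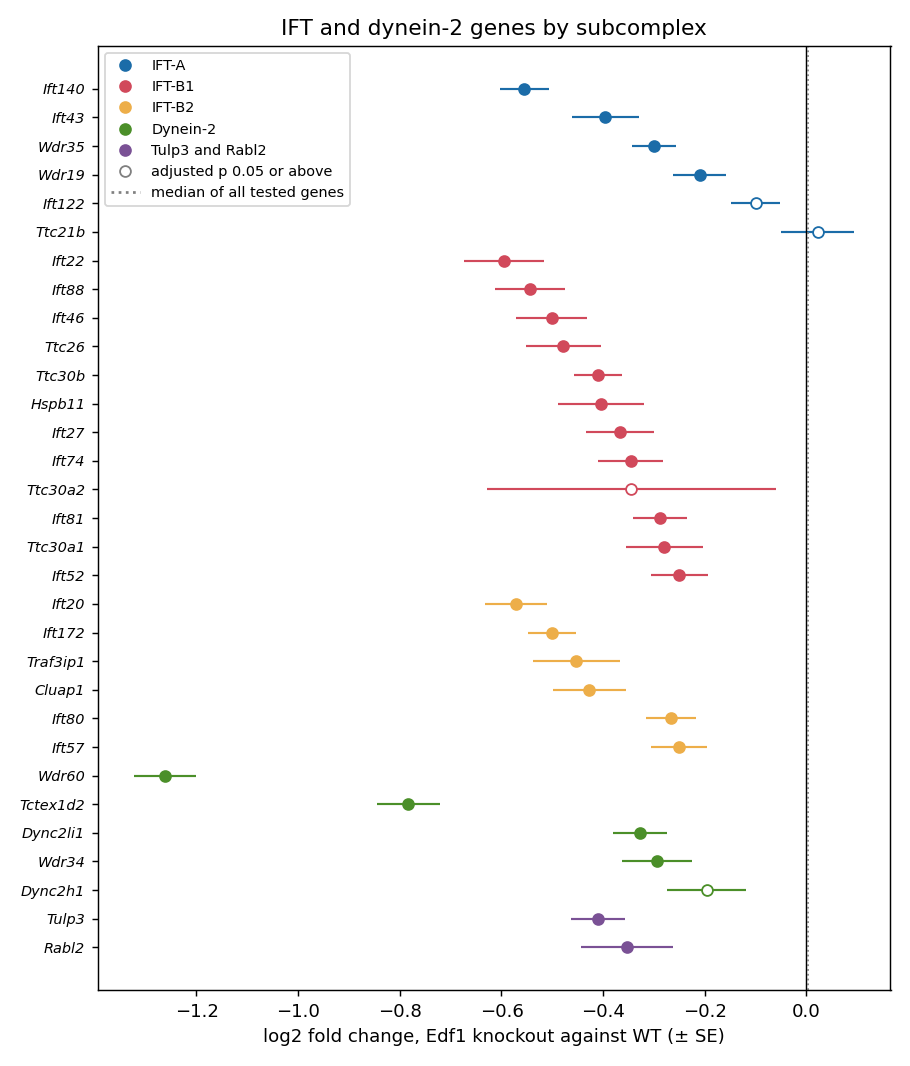
Log2 change of each of the 31 genes, Edf1 knockout against WT, by subcomplex; points are the fitted values, bars are standard errors, and open points had an edgeR adjusted p of 0.05 or above. The dotted line is the median of all tested genes at 0.0029, Wdr60 stands lowest at -1.26 and Ttc21b is the one gene above 0, at 0.022.

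The separation held library by library. Taking each gene's log2 CPM relative to its mean over the WT libraries, the median over the 31 genes was -0.35, -0.35 and -0.35 in knockout replicates 1, 2 and 3. In WT replicates 1, 2 and 3 it was -0.026, 0.065 and -0.041. By this median, the knockout libraries differed from each other less than the WT libraries did. Among the subcomplex medians only IFT-A ran the other way, from -0.276 to -0.234 in the knockout and from -0.012 to 0.012 in WT. WT replicate 2 was the highest WT library for the median of every subcomplex, and without it 28 genes were called lower, with a median log2 change of -0.35. The 3 WT and 3 knockout libraries did not overlap, with the knockout lower, for 28 of the 31 genes, against 22.1% of all tested genes, and with the knockout higher for 0, against 21.3%. In bulk RNA, fewer multiciliated cells and less RNA per cell cannot be told apart.

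**Figure D2:**
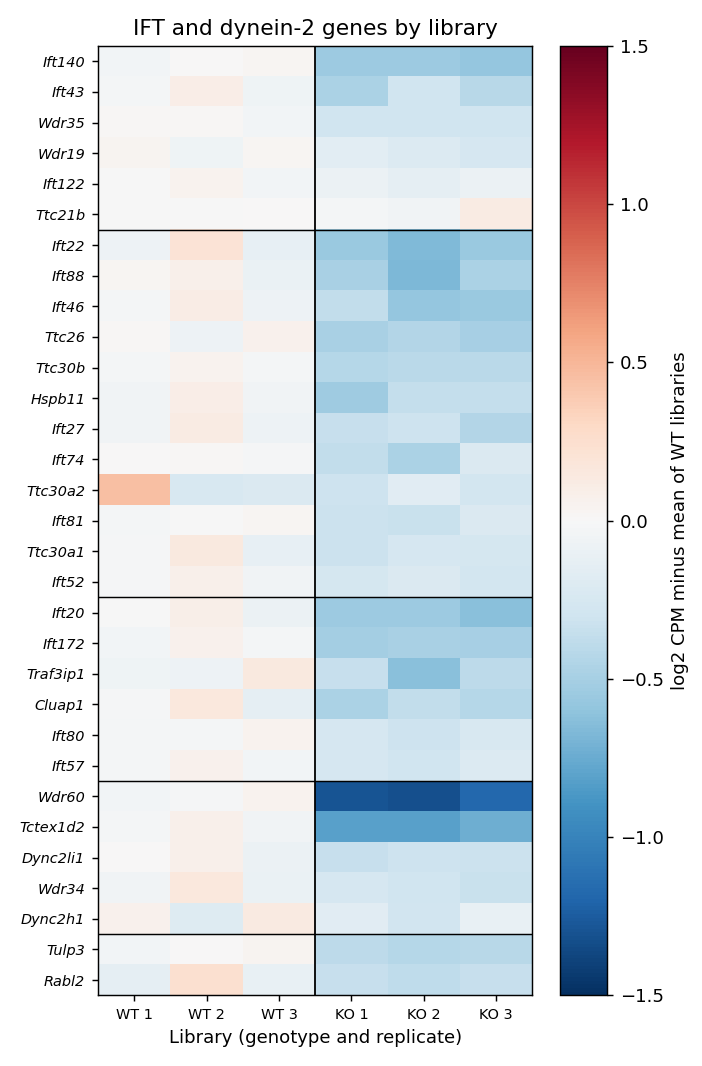
Level of each gene in each library as log2 CPM minus the mean of the 3 WT libraries (blue is lower, red is higher); rows are genes grouped by subcomplex, columns are libraries. The knockout columns are blue in nearly every row and darkest for Wdr60 and Tctex1d2, while Ttc21b shows no shift.

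The genes with the largest differences, Wdr60 and Tctex1d2, code for subunits of dynein-2, the motor that carries trains back from the tip. By its median, the list of 5 dynein-2 genes did not fall most. Its summed level was 652 to 660 CPM in WT and 479 to 505 CPM in the knockout. Its median log2 change was -0.33, with 4 called lower, against -0.39 for IFT-B1 and -0.44 for IFT-B2. Wdr60, an intermediate chain of this motor, had 89.5, 90.9 and 95.7 CPM in WT and 37.4, 36.8 and 40.5 CPM in the knockout. Every knockout library was under every WT library by a wide margin. The fitted log2 change was -1.26 (SE 0.061; edgeR, adjusted p = 1.04e-07), or 41.6% of the WT level. Wdr60 was the only one of the 31 genes called lower at a fall of at least 2-fold, against 1.69% of all tested genes. The gene lies at chr12:116206262-116263022 on the minus strand of GRCm38, and its 3721-base transcript of 22 exons shares no 31-base word with another annotated gene.

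Tctex1d2, a dynein light chain that binds the motor together with Wdr60, fell next most. It had 64.2, 69.3 and 63.3 CPM in WT and 37.1, 37.3 and 39.5 CPM in the knockout. The groups stood well apart here as well. The fitted log2 change was -0.78 (SE 0.062; edgeR, adjusted p = 2.37e-06), or 57.9% of WT. The gene is at chr16:32419702-32429099 on the plus strand.

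The other subunits of the motor moved less. Dync2li1, the light intermediate chain, had 200, 211 and 188 CPM in WT and 156, 161 and 159 CPM in the knockout, giving a log2 change of -0.33 (SE 0.053). Wdr34, the other intermediate chain, had 83.6, 96.4 and 80.9 CPM in WT and 73.0, 70.5 and 68.9 CPM in the knockout, giving a log2 change of -0.29 (SE 0.069). Both passed (edgeR, adjusted p = 6.26e-04 and 0.00741), and in neither did the groups overlap. The ratio of Wdr60 to Wdr34 CPM was 0.943 to 1.18 in the WT libraries and 0.513 to 0.588 in the knockout libraries. The pair was picked after its values were seen, so the ratio is a description.

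Dync2h1, the heavy chain that holds the motor domain, did not pass. It had 222, 185 and 232 CPM in WT and 188, 173 and 197 CPM in the knockout. WT replicate 2 lay inside the knockout range, so the groups overlapped. The fitted log2 change was -0.20 (SE 0.078; edgeR, adjusted p = 0.0821). Leaving out WT replicate 2 gave -0.28 (edgeR, adjusted p = 9.99e-05), while leaving out WT replicate 3 gave -0.13 (edgeR, adjusted p = 0.252). Without any 1 of the other 4 libraries Dync2h1 did not pass either, at -0.24 to -0.15 (edgeR, adjusted p = 0.101 to 0.280). When library-specific effects of GC content and transcript length were removed it was -0.36 (edgeR, adjusted p = 5.61e-06); at 14264 bases this is the longest transcript of the 31. With the replicate number as a block it was -0.19 and also passed (edgeR, adjusted p = 0.0133).

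**Figure D3:**
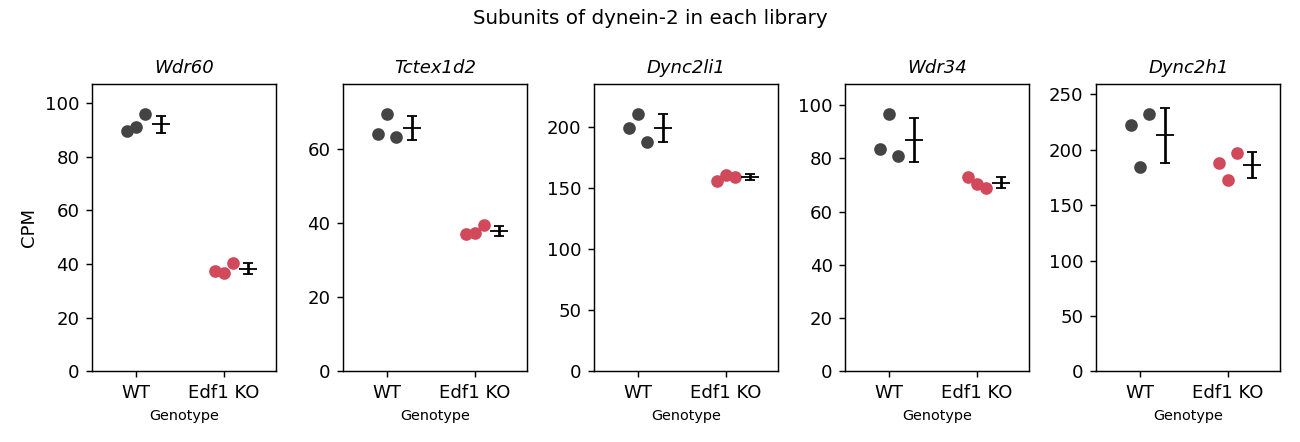
CPM of the 5 dynein-2 subunits in each library, with each axis starting at 0; dots are libraries, and the dash and bar beside them are the mean and SD of 3 libraries. Wdr60 and Tctex1d2 fall to 41.6% and 57.9% of WT, and for Dync2h1 the groups overlap.

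Dynein-2 also uses small light chains that it shares with cytoplasmic dynein, taken here as a list of 6 genes. Of these, 3 were called lower and none higher, against 14.2% and 12.7% of all tested genes. The median of the list was -0.26. The lowest was Dynlrb2, the roadblock chain known for its high expression in ciliated tissue, with 194, 206 and 190 CPM in WT and 106, 99.95 and 104 CPM in the knockout. Its fitted log2 change was -0.93 (SE 0.053; edgeR, adjusted p = 2.56e-07). Its paralog Dynlrb1, which serves cytoplasmic dynein in all cells, had a log2 change of -0.16 and did not pass (edgeR, adjusted p = 0.0773). The other genes called lower were Dynll1 at -0.41 (edgeR, adjusted p = 4.49e-04) and Dynlt1b at -0.37 (edgeR, adjusted p = 0.00664). Dynlt3, at 0.058, did not pass (edgeR, adjusted p = 0.565). The highest of the list was Dynll2 at 0.13 (edgeR, adjusted p = 0.119).

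IFT-B1 is the core of the larger train complex, and 11 of its 12 genes fell, with a median log2 change of -0.39. Ift22, a Rab-like subunit, was lowest, with 157, 190 and 152 CPM in WT and 113, 104 and 112 CPM in the knockout. WT replicate 2 was its highest library, and the groups did not overlap. The fitted log2 change was -0.60 (SE 0.078; edgeR, adjusted p = 1.15e-04). Ift88, the subunit whose loss is the classic cause of missing cilia in mice, had 96.1, 99.3 and 88.4 CPM in WT and 67.3, 59.3 and 67.8 CPM in the knockout, giving a log2 change of -0.54. Ift46, which is known to link outer dynein arms to the train, changed by -0.50. Ttc26, a subunit at the periphery of the core, changed by -0.48.

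The tubulin-binding pair Ift74 and Ift81 changed by -0.35 and -0.29 on the log2 scale. Ift27 and Hspb11, partners in the small GTPase module that works with the BBSome, changed by -0.37 and -0.40. Partners in these pairs thus had differences within about 1 standard error of each other, 0.054 to 0.085 for these 4 genes. Ift52, a scaffold subunit, had the smallest fall of IFT-B1. It had 98.7, 106 and 96.4 CPM in WT and 83.7, 86.3 and 82.8 CPM in the knockout, giving a log2 change of -0.25 (SE 0.057; edgeR, adjusted p = 0.00600).

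The Ttc30 genes code for the tetratricopeptide subunit that wraps Ift52. These genes are 3 single-exon copies that lie close together on chromosome 2, and parts of their sequences are the same. Their coding sequences of 1995 bases were 94.8% to 95.1% identical. The first 120 coding bases of the GENCODE M21 transcripts are shown because they carry both differences and stretches that the 3 copies share. Capitals mark the 14 positions at which the 3 copies are not all the same.
Ttc30a1: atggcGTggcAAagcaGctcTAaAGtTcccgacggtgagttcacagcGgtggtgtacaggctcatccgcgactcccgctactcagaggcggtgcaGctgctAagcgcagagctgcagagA
Ttc30a2: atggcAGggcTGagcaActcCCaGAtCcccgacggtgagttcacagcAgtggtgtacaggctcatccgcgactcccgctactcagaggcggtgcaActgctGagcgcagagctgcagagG
Ttc30b: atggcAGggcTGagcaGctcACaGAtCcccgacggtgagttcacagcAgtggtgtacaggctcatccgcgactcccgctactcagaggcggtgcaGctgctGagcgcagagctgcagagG

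Of the 31-base words in these transcripts, 36.5%, 61.3% and 44.4% for Ttc30a1, Ttc30a2 and Ttc30b also occur in another gene. How reads that fit several copies were counted is not given in the sources used here, so the split between the copies is uncertain. As counted, Ttc30b had most of the signal, with 238, 251 and 238 CPM in WT and 181, 183 and 183 CPM in the knockout, giving a log2 change of -0.41 (SE 0.047). Ttc30a1 had 38.5 to 46.5 CPM in WT and 33.6 to 35.3 CPM in the knockout, giving a log2 change of -0.28 (edgeR, adjusted p = 0.0169). It did not pass without knockout replicate 1 (edgeR, adjusted p = 0.0752) or replicate 3 (0.0555). Ttc30a2 had only 15 to 50 counts per library, with overlapping groups, and its log2 change of -0.34 (SE 0.28; edgeR, adjusted p = 0.410) was not distinguishable from 0 at this depth. The value of Ttc30a2 rested on WT replicate 1, without which it was -0.029 (edgeR, adjusted p = 0.962). Without these copies, all 9 remaining IFT-B1 genes were called lower, with a median of -0.40.

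IFT-B2 is the peripheral part of the larger train complex, and all 6 of its genes fell, with a median log2 change of -0.44. Ift20, which also works at the Golgi where ciliary membrane proteins are sorted, was lowest. It had 75.2, 80.1 and 71.2 CPM in WT and 51.8, 51.5 and 49.0 CPM in the knockout, giving a log2 change of -0.57 (SE 0.061; edgeR, adjusted p = 2.58e-05). Ift172, a large subunit that acts in the turnaround at the tip, had 256, 275 and 258 CPM in WT and 184, 187 and 186 CPM in the knockout, giving a log2 change of -0.50 (SE 0.048). In both genes the knockout libraries lay close together and well under WT.

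Traf3ip1, a microtubule-binding subunit, changed by -0.45 and Cluap1, the partner of Ift57, by -0.43 on the log2 scale. For Cluap1, exons of other annotated genes cover 50% of the transcript, and those on the opposite strand cover 21.4% of the transcript, so its level is uncertain. Ift80, known from skeletal ciliopathies, changed by -0.27. Ift57 changed least, with 124, 133 and 123 CPM in WT and 106, 103 and 110 CPM in the knockout, giving a log2 change of -0.25 (SE 0.055; edgeR, adjusted p = 0.00502). Exons of an antisense gene cover 8.65% of its transcript.

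IFT-A, the complex of return transport and of receptor entry, had the smallest median of the 5 lists, -0.26, and its members differed from one another. Of its 6 genes, 4 fell. Ift140, a core subunit, had 192, 198 and 201 CPM in WT and 135, 135 and 132 CPM in the knockout. The fitted log2 change was -0.56 (SE 0.047; edgeR, adjusted p = 3.97e-06), with the groups far apart. Ift43, the smallest subunit, had 71.0, 77.7 and 69.5 CPM in WT and 52.2, 59.0 and 54.3 CPM in the knockout, giving a log2 change of -0.40 (SE 0.066). Wdr35, which sits at the periphery of the complex, had 324 to 337 CPM in WT and 269 to 270 CPM in the knockout, giving a log2 change of -0.30 (SE 0.043).

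Wdr19, another core subunit, had 172, 160 and 171 CPM in WT and 149.6, 145.5 and 140.5 CPM in the knockout. The groups did not overlap, and the log2 change was -0.21 (SE 0.052; edgeR, adjusted p = 0.0102). The call did not hold without WT replicate 1 (edgeR, adjusted p = 0.0549) or knockout replicate 3 (0.0645). Ift122, the other core subunit, had 178, 185 and 174 CPM in WT and 169, 163 and 169 CPM in the knockout. Its groups did not overlap either, but the log2 change of -0.100 (SE 0.049) did not pass (edgeR, adjusted p = 0.151), and it passed after the GC and length correction, at -0.12 (edgeR, adjusted p = 0.0385). Ttc21b, which codes for a peripheral subunit with a role in hedgehog signalling, had 32.9, 33.1 and 33.4 CPM in WT and 32.5, 32.0 and 36.1 CPM in the knockout. The groups overlapped, and the log2 change of 0.022 (SE 0.072; edgeR, adjusted p = 0.852) had no stable sign, falling to -0.035 without knockout replicate 3 and to -0.0081 after the GC and length correction. The ratio of Ift140 to Ift122 CPM was 1.07 to 1.15 in WT and 0.784 to 0.827 in the knockout, again a pair picked after its values were seen.

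Both remaining genes fell. Tulp3, the adaptor that hands membrane receptors to IFT-A, had 104, 107 and 110 CPM in WT and 81.3, 79.6 and 79.98 CPM in the knockout, giving a log2 change of -0.41 (SE 0.053; edgeR, adjusted p = 1.04e-04). Rabl2, a GTPase that helps IFT-B leave the base, had 48.2, 62.6 and 48.9 CPM in WT and 41.6, 40.7 and 41.7 CPM in the knockout, giving a log2 change of -0.35 (SE 0.090; edgeR, adjusted p = 0.0118). WT replicate 2 stood above the other WT libraries for Rabl2, and without it the log2 change was -0.23 (edgeR, adjusted p = 0.00451). Rabl2 did not pass without knockout replicate 2 (edgeR, adjusted p = 0.0514). Other tubby family genes, Tub, Tulp1, Tulp2 and Tulp4, gave no call in the 3 that could be tested, with 0 below an edgeR adjusted p of 0.05 and values from -0.0059 for Tulp4 to 0.25 for Tub. When 1 library was left out, Tulp4 ran from -0.15 (without WT replicate 2) to 0.11 (without WT replicate 3), and Tub from 0.14 to 0.45 without the same libraries.

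The levels of the genes in WT were compared per kilobase of transcript (CPM per kb), since longer transcripts collect more reads. Dync2li1 was highest at 147 ± 8.36 CPM per kb (SD, n = 3), followed by Ift43 at 94.1 ± 5.67 and Ttc30b at 88.6 ± 2.76. These 3 kept the first 3 places in the knockout, at 117, 71.4 and 66.6 CPM per kb. Ttc26 at 7.35 ± 0.351, Ttc21b at 7.42 ± 0.0548 and Ttc30a2 at 0.581 ± 0.168 CPM per kb were lowest, in both genotypes. Across the 31 genes, the log2 change had a Spearman correlation of -0.11 with the WT level per kb, 0.19 with transcript length and -0.22 with GC content. These are descriptions over genes that share their libraries, and genes are not independent replicates.

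Other parts of the transport system were read from the same fit, in which 14.2% of all tested genes were called lower and 12.7% higher. Kinesin-2, the outward motor, had 1 of 5 genes called lower: Kif3a, a motor subunit, at -0.17 (edgeR, adjusted p = 0.0422). The Kif3a call was lost in 5 of the 6 fits that left out 1 library, with edgeR adjusted p-values of 0.0512 to 0.186, and passed only without WT replicate 2. The median of the 5 was -0.089, and Kif3c was highest at 0.043, or -0.0013 without WT replicate 3. The BBSome, a cargo coat that rides on the trains, and its GTPase Arl6 had 7 of 10 genes called lower and a median of -0.27, from -0.38 for Bbs7 to -0.096 for Bbs4. Among 9 regulators and cargo adaptors of IFT, 5 were called lower and none higher, with a median of -0.20. Daw1, which loads outer dynein arms onto trains, was lowest at -0.45, and the kinase gene Cdk20 was highest at 0.22 (edgeR, adjusted p = 0.0751). Without WT replicate 2, Cdk20 was called higher at 0.29 (edgeR, adjusted p = 0.00585). The motile axoneme list, by comparison, holds genes for the parts that make a cilium beat and for factors that assemble its dynein arms. Of its 32 genes, 28 were called lower, with a median of -0.72, from -1.74 for Dnah11 to 0.046 for Tekt2. Tekt2 had no stable sign, at -0.11 without WT replicate 1 and 0.16 without WT replicate 2. The share called was thus alike for trains and axoneme while the medians were -0.37 and -0.72; the difference between the lists was not tested.

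**Figure D4:**
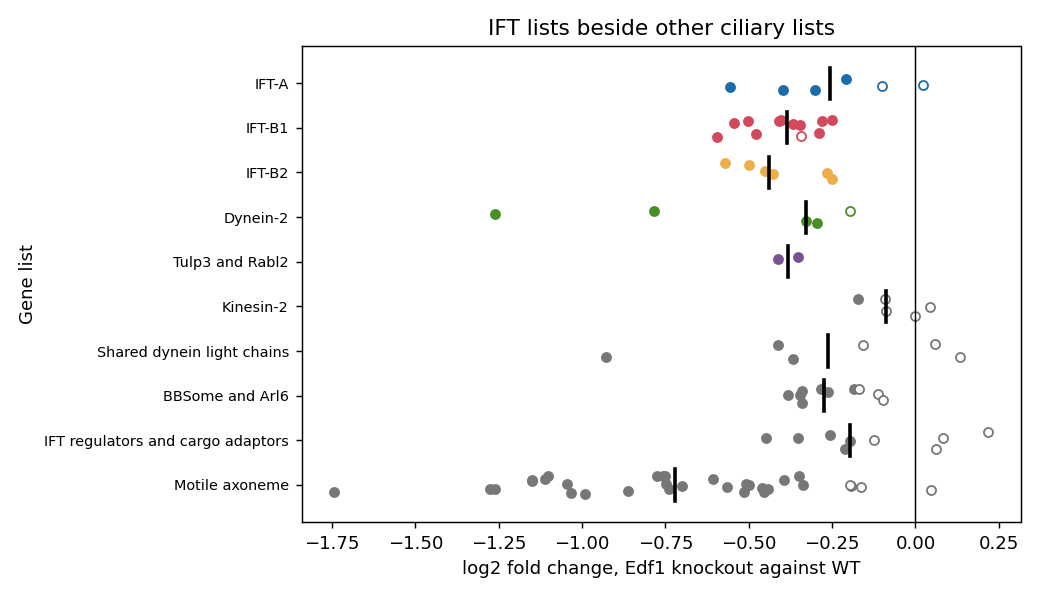
Log2 change of each tested gene, Edf1 knockout against WT, in the 5 IFT lists (coloured) and in 5 other ciliary lists (grey); vertical bars are list medians, and open points had an edgeR adjusted p of 0.05 or above. The IFT medians lie between -0.44 and -0.26, kinesin-2 lies at -0.089 and the motile axoneme at -0.72.

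The regulators known to act on ciliary genes did not all pass the test. Foxj1, the factor for motile cilia, had 767, 838 and 759 CPM in WT and 517, 517 and 535 CPM in the knockout, giving a log2 change of -0.59 (SE 0.049; edgeR, adjusted p = 3.41e-06). Of the RFX factors, which bind the X-box motif in ciliary promoters, Rfx2 changed by -0.24 (edgeR, adjusted p = 0.0128), and Rfx3 had overlapping groups at 30.2 to 47.8 CPM in WT and 35.6 to 43.8 CPM in the knockout. Rfx1 was called lower at -0.25 (edgeR, adjusted p = 0.0186), and Rfx4 had a value of 0.13 (edgeR, adjusted p = 0.0834). The Rfx2 call was lost without knockout replicate 2 or 3 (edgeR, adjusted p = 0.0557 and 0.0703), and the Rfx1 call without knockout replicate 2 (edgeR, adjusted p = 0.0843).

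Since the genes moved together, their promoters were searched for these factors' motifs. RefSeq windows on GRCm38.p6, from 250 bases before to 50 after the start, were matched by symbol for 26 of the 31 genes. The X-box was searched on both strands as its arm GTTGCC, and as the pair GTTNCC and GGNAAC spaced by 1 to 3 bases, forms that overlap each other. The single arm was in 11 of 26 windows (42.3%), against 12.5% of all 32851 windows and 13% of the windows of tested genes. The pair was in 3 of 26 windows (11.5%), against 0.776% and 0.887%. The forkhead motif GTAAACA, which fits Foxj1 among other factors, was in 0 of 26, against 3.65% and 2.62%. These matches are letters in a window and say nothing of binding.

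The 3 windows that hold the pair belong to Ttc26, Ift57 and Ttc30a2. They are shown with the pair in capitals, as 30 bases at chr6:38381483-38381512 (plus strand), chr16:49699226-49699255 (plus strand) and chr2:75978182-75978211 (minus strand).
Ttc26: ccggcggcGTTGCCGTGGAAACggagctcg
Ift57: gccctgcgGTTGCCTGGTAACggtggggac
Ttc30a2: gttggcttGTTGCCATGGGAACaagcacac

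The log2 changes of these genes, -0.48, -0.25 and, for Ttc30a2, -0.34 that rested on 1 library, lay within the range of the genes without the pair. That range, from -1.26 for Wdr60 to 0.022 for Ttc21b, is also the range of all 31 genes. The comparison thus cannot show whether the pair matters. The genes with the largest falls, Wdr60 and Tctex1d2, did not hold the pair. The 100 bases before their starts, at chr12:116263026-116263125 (minus strand) and chr16:32419602-32419701 (plus strand), are shown for comparison, with the single arm in capitals.
Wdr60: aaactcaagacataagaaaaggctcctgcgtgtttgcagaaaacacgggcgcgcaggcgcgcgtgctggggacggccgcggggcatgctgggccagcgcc
Tctex1d2: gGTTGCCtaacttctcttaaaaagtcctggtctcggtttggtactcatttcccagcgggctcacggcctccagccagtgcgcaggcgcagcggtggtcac

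Of this pair, only the Tctex1d2 stretch holds the single arm, and the whole Wdr60 window holds none of the motifs searched. Windows with the single arm thus belonged both to genes with large falls, such as Tctex1d2 and Ift140, and to genes that did not pass, such as Dync2h1.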

How the data were processed

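Read counts per gene symbol were used as deposited by the authors, whole numbers with 1 column per library. The submitters' processing notes list FastQC 0.11.2, cutadapt 1.11, HISAT2 2.1.0 and GRCm38; the counting program, annotation, strandedness and rule for reads with several matches are not given in the sources used here. The table had 0 rows without a gene name and 0 unused columns.

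Counts were analysed in R 4.3.3. After filterByExpr, 14243 of 22851 genes were tested with edgeR 4.0.16 (quasi-likelihood, TMM factors 0.985 to 1.01, no covariate). P-values were adjusted by Benjamini-Hochberg across the tested table, and adjusted values below 0.05 were called. The standard error is the absolute log2 fold change over the square root of F. CPM uses TMM-scaled library sizes; log2 CPM by library has a prior count of 2. The biological coefficient of variation was 6.49%. Of the 31 genes, all except Ttc30a2 had at least 279 counts in each library; some genes of the other lists had fewer. Lengths, positions and shared 31-base words come from GENCODE M21 by symbol, using the principal coding transcript.

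The members and gene lists were chosen with earlier results of these data known. All 31 genes are named, with full values for the lowest and highest of each subcomplex; from each related list, marker lists aside, the lowest and highest tested gene are named, with Foxj1, Rfx2 and Rfx3. Other genes named (Dynlrb1, Dynll1, Dynlt1b, Dynlt3, Rfx1, Rfx4, Prl and Gh) were chosen after their values were seen. No list received a set test. The fits were also run on simulated counts, and no result given here rests on that run. Alternatives were DESeq2 1.42.0, limma 3.58.1 voom, other scalings and filters, a threshold of 0.01, each library left out, a replicate block, and a correction for GC content and length (natural splines with 4 degrees of freedom, 99% of tested genes matched).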

Additional observations from a re-analysis of the deposited data

How the results depend on the processing

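The count of genes called lower stayed at 24 to 29 of 31 over the 16 alternatives, and 0 were called higher in any. Over all genes, 3833 were called, and 2213 with the threshold of 0.01. The median log2 fold change of the 31 genes was -0.32 after the GC and length correction, with or without the replicate block, and -0.41 to -0.35 when 1 library was left out. The same correction gave -0.28 for IFT-A, -0.31 for IFT-B1, -0.39 for IFT-B2, -0.36 for dynein-2 and -0.33 for Tulp3 and Rabl2. Dynein-2 then lay below IFT-B1, the reverse of their order without the correction. Ttc21b was at -0.0081, or -0.014 with the block. When 1 library was left out, Ttc21b ran from -0.035 (without knockout replicate 3) to 0.055. The causes were not tested. Of 495 single-gene values, 478 kept direction and call, 8 lost the call, 6 gained it and 3 changed sign; 25 genes kept direction and call throughout. The labels state no pairing by replicate number. Same-numbered libraries had small positive correlations of deviations, 0.069, 0.060 and 0.037. With 3 libraries per group, these do not settle whether the libraries were paired. With the replicate number as a block, 4065 genes were called over the table and 28 of the 31 fell, with Dync2h1 added. Depth limits Ttc30a2, at 15 to 50 counts.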
